A study of Mus musculus with 12 samples.

Results

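The genes described here are 51 transcripts of the lysosome, namely the subunits of its proton pump, its membrane proteins, its hydrolases with their cofactors, and the 4 MiT/TFE transcription factors *Tfeb*, *Tfe3*, *Mitf* and *Tfec*. They were taken from the table by gene symbol, with the cathepsins and *Atp6v0d2* left out, and each symbol matched 1 gene of the 54532. The list was drawn up with earlier results of these data known. All 51 lay above 0.5 CPM (counts scaled by the effective library size) in at least 2 of the 12 libraries and were tested, among 14894 genes that passed this filter. The series is RNA-seq of C57BL/6 wild-type mouse bone marrow, cultured for 5 days with GM-CSF and IL-6, cytokines under which immunosuppressive myeloid cells form. The cultures received vehicle (0.1% DMSO), 10 µM indole-3-propionic acid (IPA) or 50 µM IPA, and 4 libraries were made for each of these 3 groups. IPA is a tryptophan metabolite made by gut bacteria, and the question was how its presence changes the cells that form. All groups received the same cytokines, and there was no culture without them. The labels do not say whether the libraries of a group came from separate mice or cultures, so that the p-values measure the spread between these libraries, which may be technical.

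Lysosomes break down proteins, glycans, lipids and nucleic acids with acid hydrolases. The vacuolar ATPase (V-ATPase) acidifies them: its V0 sector forms the proton channel in the membrane and its V1 sector hydrolyses ATP, while accessory subunits help to assemble and guide the pump. The MiT/TFE factors are bHLH leucine zipper proteins that bind E-boxes in the promoters of many lysosomal genes, where the extended palindrome is known as the CLEAR element, and macrophages and osteoclasts are rich in lysosomal transcripts.

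The promoters were searched for the E-box, since it is the sequence through which the MiT/TFE factors bind. RefSeq (GRCm38.p6) gave a window from 250 bases before to 50 bases after the start site for 45 of the 51 genes, and no window for *Atp6v1g1*, *Atp6v1b2*, *Atp6v1h*, *Atp6v1c1*, *Asah1* and *Npc1*. The E-box CACGTG, which reads the same on both strands, was found in the windows of 13 of the 45 genes (28.9%), against 8.09% of all 27025 genes with a window. The 27025 include genes below the expression filter, which all 45 members passed, so these shares and those below compare unlike sets. Among tested genes with a window, an E-box was held by 10.4% of those that rose at 50 µM IPA against vehicle. It was held by 13.4% of those that fell and 11.5% of the rest. The longer palindrome TCACGTGA, which contains the E-box, was found in 5 of the 45 (11.1%), against 1.12% of all genes. The CLEAR palindrome GTCACGTGAC, which contains both, was found in 0 of the 45, against 0.37% of all genes, which says only that these letters are not in these windows. The 13 genes held 19 E-boxes, of which 15 began within 100 bases of the start site and 18 before it. A match is a description of the sequence and no evidence that a factor was bound.

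*Lamp1* held the most E-boxes of any member, and its 250 bases before the start site are shown with the 4 E-boxes in capitals.
*Lamp1*, chr8:13158911-13159160, plus strand: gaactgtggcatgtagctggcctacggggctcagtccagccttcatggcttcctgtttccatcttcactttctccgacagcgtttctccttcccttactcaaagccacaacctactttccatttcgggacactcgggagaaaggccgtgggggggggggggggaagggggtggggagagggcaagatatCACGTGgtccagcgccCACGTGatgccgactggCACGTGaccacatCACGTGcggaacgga

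The E-boxes of *Lgmn*, *Glb1* and *Gaa*, which together with *Lamp1* are the members with an E-box that rose at 50 µM IPA, are shown with 12 bases on each side and the E-box in capitals.
*Lgmn*, chr12:102439124-102439153, minus strand: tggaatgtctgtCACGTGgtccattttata
*Glb1*, chr9:114401018-114401047, plus strand: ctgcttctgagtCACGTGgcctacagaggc
*Gaa*, chr11:119267811-119267840, plus strand: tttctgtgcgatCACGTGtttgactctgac

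The 6 copies of the longer palindrome, shown because they are the closest to the CLEAR element, are given with the palindrome in capitals.
*Mcoln1*, chr8:3500462-3500491, plus strand: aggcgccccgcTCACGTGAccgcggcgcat
*Atp6v0d1*, chr8:105566050-105566079, minus strand: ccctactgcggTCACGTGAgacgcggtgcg
*Atp6v0e*, chr17:26676387-26676416, plus strand: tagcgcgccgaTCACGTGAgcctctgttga
*Atp6v1a*, chr16:44139373-44139402, minus strand: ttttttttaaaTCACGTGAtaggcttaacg
*Gla*, chrX:134601215-134601244, minus strand: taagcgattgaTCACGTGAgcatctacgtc
*Gla*, chrX:134601182-134601211, minus strand: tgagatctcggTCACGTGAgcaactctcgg

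**Figure D1:**
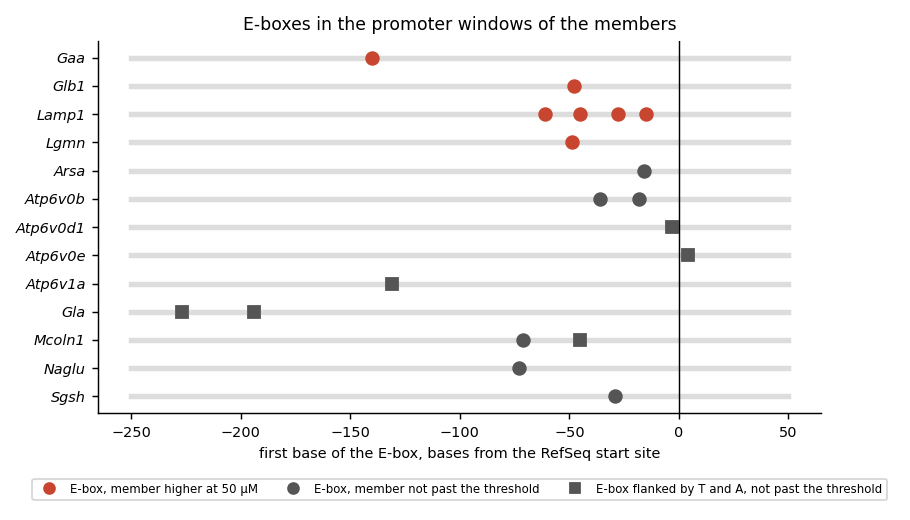
Position of each E-box in the promoter windows of the 13 members that hold one, in bases from the RefSeq start site (x axis), with 1 row per gene. Circles are E-boxes, squares are E-boxes flanked by T and A, red marks the members that were higher at 50 µM IPA than with vehicle, and 15 of the 19 E-boxes begin within 100 bases of the start site.

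The libraries held between 20451312 and 28038612 counted reads. The 51 genes took 1.31 to 1.49% of them with vehicle, 1.51 to 1.73% at 10 µM and 1.44 to 1.51% at 50 µM. Mitochondrial transcripts took 0.674 to 1.28% of the reads with vehicle, 0.674 to 1.06% at 10 µM and 0.945 to 1.2% at 50 µM. Cell type markers also moved between the groups, and their levels are given with the comparisons.

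Levels were compared between genes as CPM per kb of exon. *Psap*, which encodes prosaposin, the precursor of the saposins that present sphingolipids to their hydrolases, was by far the most abundant member, with 2169 ± 165 CPM per kb (SD, n = 4) with vehicle. This level was above that of 99.9% of the genes tested. *Lamp1*, a heavily glycosylated protein of the lysosomal membrane, followed with 247 ± 13 CPM per kb (SD, n = 4), and then *Atp6v0d1*, the V0 subunit that links the channel to the central stalk, with 133 ± 14.3 (SD, n = 4). The lowest were *Galc*, galactosylceramidase, with 1.92 ± 0.0619 CPM per kb (SD, n = 4), and *Sgsh*, a sulfohydrolase of heparan sulfate breakdown, with 0.831 ± 0.303 (SD, n = 4). In the order of the 51 vehicle levels, 43 of the 50 pairs of neighbours had overlapping ranges. The 7 pairs that did not overlap were *Psap* and *Lamp1*, *Lamp1* and *Atp6v0d1*, *Atp6v1g1* and *Atp6ap1*, *Arsb* and *Tfeb*, *Idua* and *Mcoln1*, *Mcoln1* and *Galc*, and *Galc* and *Sgsh*. Among the MiT/TFE factors *Tfec* had the highest level per length, 19.7 ± 2.08 CPM per kb (SD, n = 4), above *Tfe3* with 11.5 ± 0.528, *Tfeb* with 7.36 ± 0.616 and *Mitf* with 7.33 ± 0.610 (SD, n = 4 each).

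**Figure D2:**
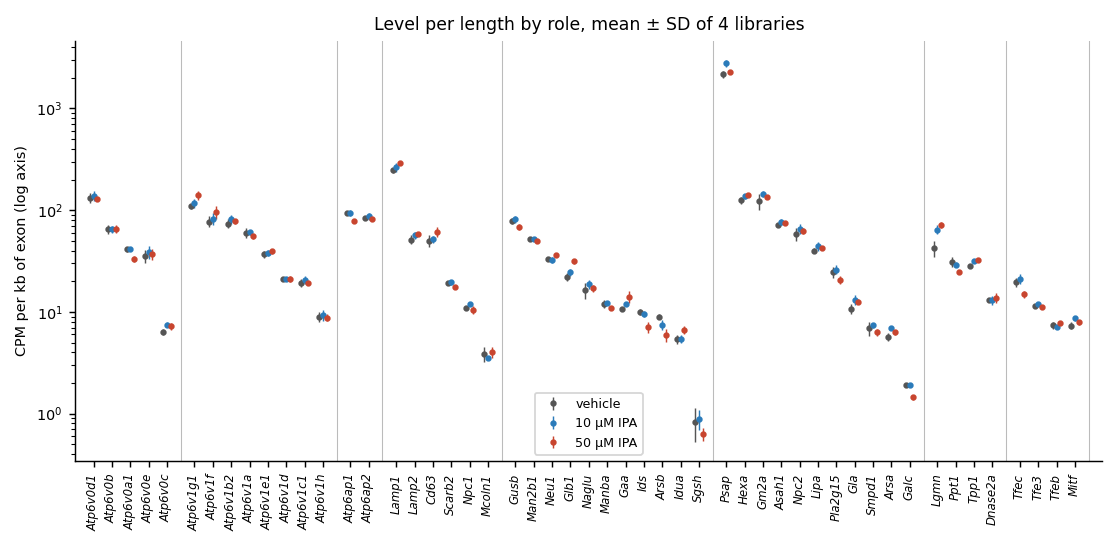
Level of the 51 genes as CPM per kb of exon (y axis, log scale), in order of role and of the vehicle level within a role; points are means and bars SD of 4 libraries for vehicle (grey), 10 µM IPA (blue) and 50 µM IPA (red). *Psap* stands at 2169 CPM per kb with vehicle and *Sgsh* at 0.831, and the groups lie close together for most genes.

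At 10 µM IPA no member differed from vehicle at an adjusted p under 0.05, and most had a log2 fold change slightly above 0. Of the 51 genes, 0 passed edgeR's quasi-likelihood test, where 0.41% of all genes tested passed (61 of 14894), 0.329% higher and 0.0806% lower. The log2 fold change was above 0 for 43 of the 51, against 48.2% of all genes, and its median was 0.09, against -0.01 over all genes. At an unadjusted p under 0.05 stood 11 members (8.78% of all genes), 10 of them higher (5.42% of all genes), namely *Lgmn*, *Psap*, *Gla*, *Arsa*, *Gm2a*, *Atp6v0c*, *Mitf*, *Tpp1*, *Gaa* and *Npc1*, and 1 lower (3.36%), *Arsb*. In 9 members every 10 µM library lay above every vehicle library (3.57% of all genes) and in 1 below (2.56%), and 6.13% of all genes had groups that did not overlap. *Lgmn* and *Psap* passed with DESeq2's test, which called 250 genes, and in an edgeR fit without vehicle replicate 4, where their adjusted p was 0.0185 and 0.0174 and 122 genes were called. The median log2 fold change was 0.14 without vehicle replicate 4, 0.05 without vehicle replicate 2 and 0.04 without 10 µM replicate 1.

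At 50 µM IPA the members moved in both directions. Against vehicle, 13 of the 51 passed (13.5% of all genes did), 6 higher (7% of all genes) and 7 lower (6.5%). The 6 that rose were *Lgmn*, *Glb1*, *Gaa*, *Atp6v1g1*, *Idua* and *Lamp1*, and the 7 that fell were *Arsb*, *Ids*, *Galc*, *Tfec*, *Ppt1*, *Atp6v0a1* and *Atp6ap1*. The median log2 fold change over the members was 0.07, against 0.01 over all genes, and 31 of the 51 lay above 0 (51.8% of all genes). An unadjusted p under 0.05 was reached by 22 members (27.9% of all genes), 13 of them higher (14.4%) and 9 lower (13.5%). In 8 members every 50 µM library lay above every vehicle library (9.45% of all genes) and in 8 below (10.5%), and 20% of all genes had groups that did not overlap. Without vehicle replicate 3 or without 50 µM replicate 4, 7 members passed (8.38 and 9.26% of all genes), and against a minimum absolute log2 fold change of 0.2 there were 4, *Lgmn*, *Glb1*, *Arsb* and *Ids* (5.8% of all genes passed it). The median was 0.02 without vehicle replicate 2 and 0.04 without 50 µM replicate 3.

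Between the doses, 13 of the 51 differed (15.4% of all genes), 3 higher at 50 µM (7.52% of all genes) and 10 lower (7.85%). *Glb1*, *Idua* and *Atp6v1g1* were higher at 50 µM than at 10 µM, and *Tfec*, *Ids*, *Galc*, *Atp6v0a1*, *Arsb*, *Pla2g15*, *Psap*, *Gusb*, *Atp6ap1* and *Ppt1* were lower. The median log2 fold change was -0.07, against 0.01 over all genes, and 18 of the 51 lay above 0 (51.4% of all genes). Of the 22 members with an unadjusted p under 0.05 (29.5% of all genes), 7 were higher (14.9%) and 15 lower (14.6%). In 2 members every 50 µM library lay above every 10 µM library (9.43% of all genes) and in 12 below (10.9%), and 20.3% of all genes had groups that did not overlap. The median was -0.03 without 10 µM replicate 1 and -0.11 without 10 µM replicate 4.

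**Figure D3:**
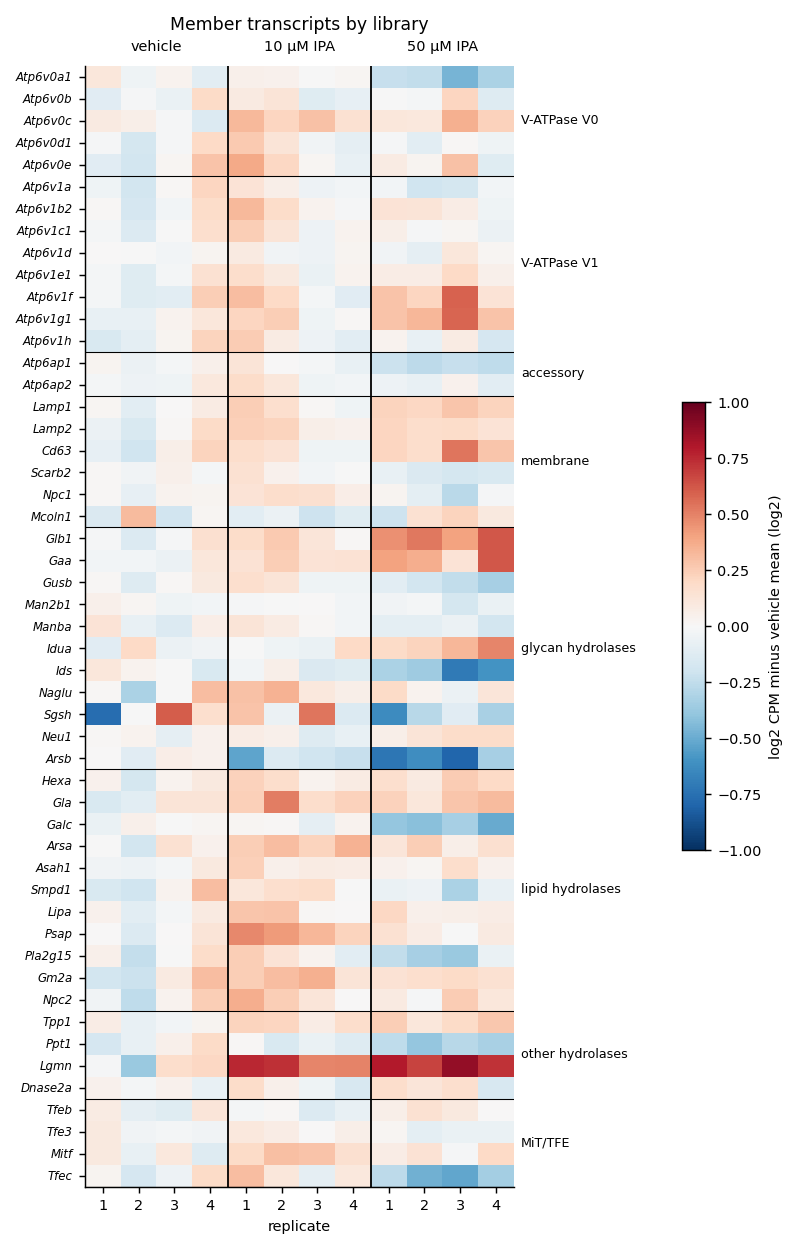
Level of the 51 genes in each library as log2 CPM minus the mean of log2 CPM over the 4 vehicle libraries (colour), with libraries in columns by group and replicate and genes in rows by role. *Lgmn* is red in all 8 IPA libraries, and *Tfec*, *Ids*, *Galc*, *Arsb*, *Ppt1*, *Atp6v0a1* and *Atp6ap1* are blue in the 50 µM libraries.

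In the V-ATPase, most of the 15 subunits tested did not pass in any comparison. Of the 5 V0 subunits, *Atp6v0a1* fell at 50 µM against both other groups. It encodes an isoform of the large a subunit, which carries protons through the membrane and helps to target the pump. *Atp6v0a1* stood at 291, 262, 276 and 251 CPM with vehicle, at 279, 278, 269 and 273 CPM at 10 µM and at 230.2, 228, 196 and 217 CPM at 50 µM. All 4 libraries at 50 µM lay below the other 8. The log2 fold change against vehicle was -0.30 (SE 0.08, edgeR adjusted p = 0.0185), and against 10 µM it was -0.33 (SE 0.06, edgeR adjusted p = 0.00193). Against vehicle the call was lost without vehicle replicate 1 (adjusted p = 0.0583), vehicle replicate 3 (0.0647) or 50 µM replicate 4 (0.0535). *Atp6v0d1*, the most abundant V0 member per length, had means of 238 ± 25.6, 249.5 ± 28 and 231 ± 8.26 CPM (SD, n = 4 each) in vehicle, 10 µM and 50 µM, with overlapping ranges. Its log2 fold change at 50 µM against vehicle was -0.03 (edgeR adjusted p = 0.834), with a sign that turned to 0.04 without vehicle replicate 4. The reads of *Atp6v0c*, the proton-binding ring subunit, are uncertain, since a processed copy, *Atp6v0c-ps2*, also has reads in the table.

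Of the 8 V1 subunits, *Atp6v1g1* rose at 50 µM against both other groups. It encodes a subunit of the peripheral stalk of the pump. *Atp6v1g1* stood at 117, 117, 127 and 134 CPM with vehicle, at 143, 147, 120.2 and 125 CPM at 10 µM and at 151, 156, 185 and 151 CPM at 50 µM. The 50 µM libraries were the 4 highest, with replicate 3 standing above the others. Against vehicle the log2 fold change was 0.38 (SE 0.08, edgeR adjusted p = 0.00958), and against 10 µM it was 0.27 (SE 0.08, edgeR adjusted p = 0.0439). The call against 10 µM was lost without 10 µM replicate 3 (adjusted p = 0.126) or 4 (0.0982) and without 50 µM replicate 2 (0.0720), 3 (0.108) or 4 (0.0555). The other 7 V1 subunits had log2 fold changes between -0.11 (*Atp6v1a*) and 0.32 (*Atp6v1f*) against vehicle, and none passed. *Atp6v1f* itself, a subunit of the central stalk, had an edgeR adjusted p of 0.0774.

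*Atp6ap1*, an accessory subunit needed for assembly of the pump, fell at 50 µM. *Atp6ap1* stood at 288, 271, 278 and 292 CPM with vehicle, at 308, 283, 278 and 267 CPM at 10 µM and at 244, 235, 240.5 and 237 CPM at 50 µM. No 50 µM library reached the lowest of the other 8. Against vehicle the log2 fold change was -0.23 (SE 0.06, edgeR adjusted p = 0.0270), and it was -0.25 against 10 µM (SE 0.06, edgeR adjusted p = 0.0115). The call against vehicle was lost without vehicle replicate 1 (adjusted p = 0.0652) or 3 (0.0755) and without 50 µM replicate 2 (0.0702) or 4 (0.0718). *Atp6ap2*, the other accessory subunit, had log2 fold changes of -0.04 and -0.10 in these comparisons and did not pass.

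Among the 6 membrane and channel genes, *Lamp1* was the one that passed, at 50 µM against vehicle. *Lamp1* stood at 668, 613, 662 and 697 CPM with vehicle, at 781, 740.1, 666 and 639 CPM at 10 µM and at 769, 761, 800.3 and 769 CPM at 50 µM. The 50 µM libraries lay above the vehicle libraries and overlapped with those at 10 µM. Its log2 fold change was 0.24 against vehicle (SE 0.07, edgeR adjusted p = 0.0303) and 0.14 against 10 µM (SE 0.07, edgeR adjusted p = 0.189). The call held in the fit without vehicle replicate 4 and was lost when any other of the 8 libraries was left out, with adjusted p up to 0.0881 (without vehicle replicate 3). *Lamp1* shares 249 bases of exon with *Grtp1* on the opposite strand, and the strand setting of the counting is not stated. *Cd63*, a tetraspanin of late endosomes, had a log2 fold change of 0.31 against vehicle (SE 0.10, edgeR adjusted p = 0.0701) and of 0.25 against 10 µM (SE 0.08, edgeR adjusted p = 0.0547), and its reads are uncertain because a pseudogene, *Cd63-ps*, also has reads. *Npc1*, the membrane transporter that exports cholesterol from lysosomes, had a log2 fold change of -0.21 between the doses (SE 0.07, edgeR adjusted p = 0.0501, and past the threshold with DESeq2 and limma-voom), with 136, 140.2, 139 and 130.3 CPM at 10 µM and 127, 116, 103 and 123 CPM at 50 µM. *Mcoln1*, the calcium channel TRPML1, had log2 fold changes between -0.14 and 0.20 and did not pass in any comparison.

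The 11 glycan hydrolases were split at 50 µM, with 3 that rose against vehicle (7% of all genes did) and 2 that fell (6.5%). *Glb1*, the lysosomal beta-galactosidase, rose most. *Glb1* (chr9:114401076-114474898, GRCm38) stood at 66.1, 60.5, 66.1 and 74.4 CPM with vehicle, at 75.7, 79.6, 72.6 and 67.0 CPM at 10 µM and at 91.2, 95.9, 87.8 and 102 CPM at 50 µM. The 4 libraries at 50 µM lay above all others. This amounted to a log2 fold change of 0.51 against vehicle (SE 0.08, edgeR adjusted p = 0.00149) and of 0.36 against 10 µM (SE 0.07, edgeR adjusted p = 0.00344), and both calls held when any library was left out. *Glb1* shares 165 bases of exon with *Tmppe* on the same strand.

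*Gaa*, the acid alpha-glucosidase that degrades glycogen, rose against vehicle. *Gaa* stood at 50.2, 50.0, 49.1 and 55.3 CPM with vehicle, at 56.4, 60.5, 56.0 and 56.6 CPM at 10 µM and at 67.6, 65.7, 56.3 and 78.5 CPM at 50 µM. Every IPA library lay above every vehicle library, and the 50 µM group was the most spread. The log2 fold change at 50 µM was 0.40 against vehicle (SE 0.10, edgeR adjusted p = 0.0153) and 0.23 against 10 µM (SE 0.09, edgeR adjusted p = 0.0888), and at 10 µM it was 0.17 against vehicle (SE 0.07, edgeR adjusted p = 0.459). The call was lost without vehicle replicate 3 (adjusted p = 0.0555) or 50 µM replicate 4 (0.0519).

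*Idua*, the alpha-iduronidase of heparan and dermatan sulfate breakdown, passed narrowly. *Idua* stood at 20.8, 25.8, 21.6 and 22.0 CPM with vehicle, at 22.5, 21.8, 21.5 and 25.8 CPM at 10 µM and at 25.7, 26.2, 28.4 and 31.5 CPM at 50 µM. The ranges touched, since 1 vehicle library and 1 library at 10 µM lay above the lowest 50 µM library. Its log2 fold change was 0.32 against vehicle (SE 0.10, edgeR adjusted p = 0.0488) and 0.29 against 10 µM (SE 0.09, edgeR adjusted p = 0.0460). Against vehicle the call held only without vehicle replicate 2, and leaving out any of the other 7 libraries ended it (adjusted p up to 0.149, without vehicle replicate 1). Against 10 µM it held without 10 µM replicate 4 or 50 µM replicate 1, and leaving out any of the other 6 ended it (adjusted p up to 0.147, without 50 µM replicate 4). *Idua* also shares 265 bases of exon with *Dgkq* and *Slc26a1* on the opposite strand.

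*Arsb* and *Ids* fell. Both encode sulfatases of glycosaminoglycan breakdown, *Arsb* that of dermatan and chondroitin sulfate and *Ids*, iduronate 2-sulfatase, that of heparan and dermatan sulfate. *Arsb* (chr13:93771630-93943016) stood at 54.1, 49.9, 56.5 and 55.6 CPM with vehicle, at 37.4, 49.1, 47.1 and 45.9 CPM at 10 µM and at 32.7, 35.0, 31.1 and 43.0 CPM at 50 µM. Its vehicle libraries were the 4 highest, while the IPA groups overlapped. Against vehicle the log2 fold change of *Arsb* was -0.60 at 50 µM (SE 0.10, edgeR adjusted p = 0.00176) and -0.27 at 10 µM (SE 0.09, edgeR adjusted p = 0.335). Between the doses it was -0.33 (SE 0.11, edgeR adjusted p = 0.0436), a call that held without 10 µM replicate 1 or 50 µM replicate 4 and was lost when any of the other 6 was left out (adjusted p up to 0.130, without 10 µM replicate 2). *Arsb* shares 2411 bases of exon with *Gm47210* and *Gm26527* on the opposite strand.

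*Ids* stood at 54.9, 52.0, 50.7 and 45.8 CPM with vehicle, at 49.7, 52.9, 46.0 and 46.6 CPM at 10 µM and at 40.7, 39.6, 31.0 and 33.5 CPM at 50 µM. All libraries at 50 µM lay below the rest. *Ids* had log2 fold changes of -0.48 against vehicle (SE 0.10, edgeR adjusted p = 0.00618) and -0.43 against 10 µM (SE 0.09, edgeR adjusted p = 0.00481), and both calls held when any library was left out. *Gusb*, beta-glucuronidase and the most abundant glycan hydrolase per length, fell between the doses, from 372 ± 28.8 to 309 ± 20.6 CPM (SD, n = 4 each, log2 fold change -0.27, SE 0.07, edgeR adjusted p = 0.0168). This call was lost without 10 µM replicate 2 (adjusted p = 0.0653) or 50 µM replicate 4 (0.0660). Against vehicle, with 359 ± 23.0 CPM (SD, n = 4), its log2 fold change of -0.21 did not pass (edgeR adjusted p = 0.0884), except without vehicle replicate 2 (0.0382). The other 5 genes of the role, *Man2b1*, *Manba*, *Naglu*, *Sgsh* and *Neu1*, passed in no comparison. *Sgsh*, at 2.04 to 5.29 CPM over the 12 libraries, had a log2 fold change of -0.51 between the doses (SE 0.21, 95% interval from -0.95 to -0.07, unadjusted p = 0.0253 and adjusted p = 0.109 in edgeR's test). The estimate was as low as that of *Tfec*, -0.51, with a wider interval.

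**Figure D4:**
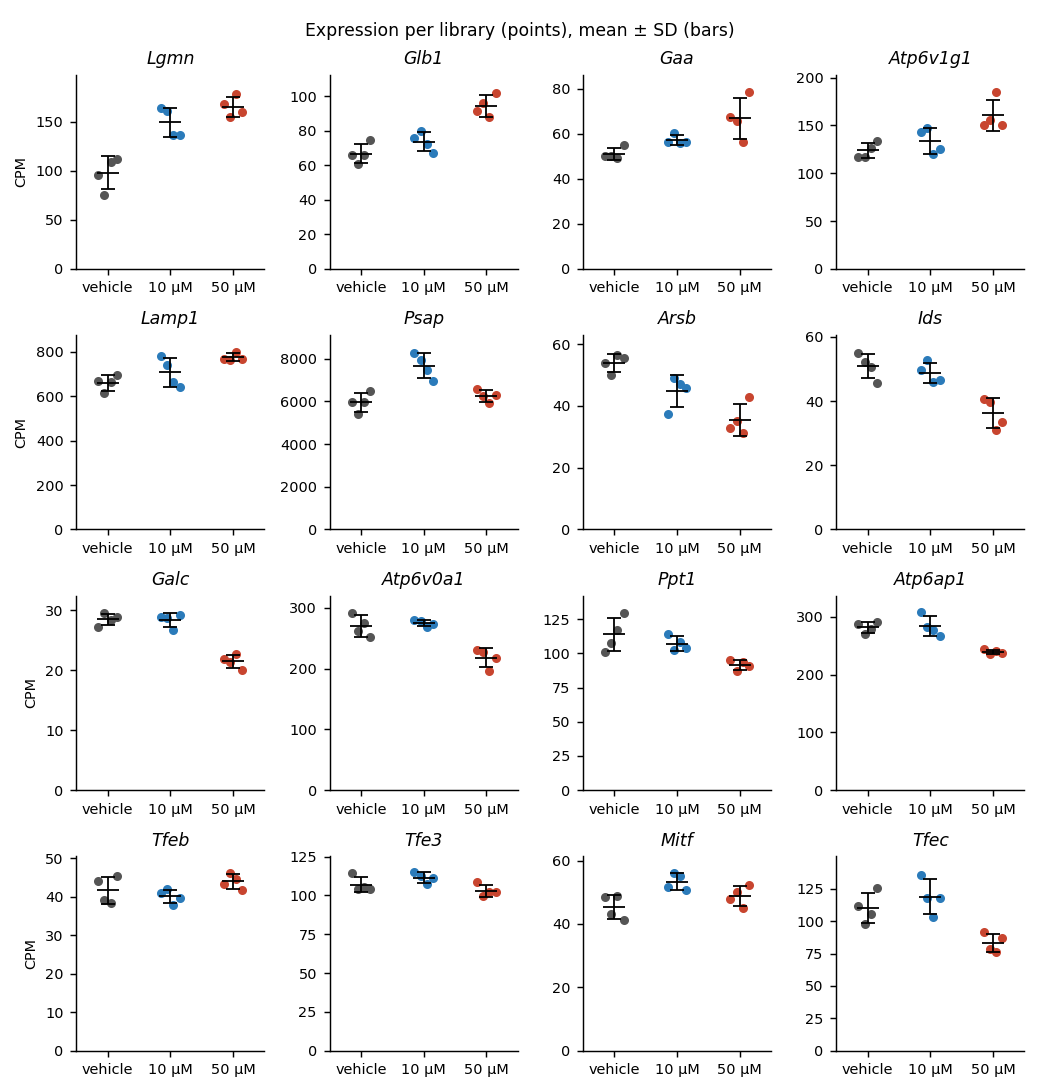
Level in CPM (y axis, from 0) of 16 members in each library (points), with the mean and SD of the 4 libraries of a group (bars), for vehicle, 10 µM and 50 µM IPA. The 50 µM libraries of *Glb1* and *Atp6v1g1* lie above all others, those of *Ids*, *Galc*, *Atp6v0a1*, *Ppt1*, *Atp6ap1* and *Tfec* below all others, and *Psap* is highest at 10 µM.

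Of the 11 lipid hydrolases and cofactors, 10 had a log2 fold change above 0 at 10 µM against vehicle (48.2% of all genes did) and 1 had one above 0 between the doses (51.4% of all genes). The 10 µM libraries enter both counts with opposite sign, so that these are not separate observations. *Psap* stood at 5964, 5387, 5955 and 6497 CPM with vehicle, at 8281, 7961, 7468 and 6934 CPM at 10 µM and at 6594, 6253, 5917 and 6313 CPM at 50 µM. The 10 µM libraries were the 4 highest, and the other groups overlapped. The log2 fold change was 0.36 at 10 µM against vehicle (SE 0.08, edgeR adjusted p = 0.0761) and 0.08 at 50 µM against vehicle (SE 0.07, edgeR adjusted p = 0.516). *Psap* fell between the doses by 0.29 on the log2 scale (SE 0.06, edgeR adjusted p = 0.00604), a call that held when any library was left out. The summed level of all 51 genes was 12833 to 15297 CPM with vehicle and 15032 to 17546 CPM at 10 µM. Without *Psap* it was 7446 to 8800 and 8098 to 9265 CPM. The ranges of the groups overlapped with *Psap* and without it.

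*Galc*, which cleaves galactosylceramide, fell at 50 µM with little spread. *Galc* stood at 27.3, 29.5, 28.4 and 28.9 CPM with vehicle, at 28.8, 28.7, 26.7 and 29.3 CPM at 10 µM and at 21.8, 21.3, 22.7 and 20.1 CPM at 50 µM. The 4 libraries at 50 µM lay clear of the other 8. *Galc* had log2 fold changes of -0.40 against vehicle (SE 0.08, edgeR adjusted p = 0.00528) and -0.40 against 10 µM (SE 0.08, edgeR adjusted p = 0.00328), and both calls held when any library was left out. *Galc* shares 400 bases of exon with *Gm47439* on the opposite strand. *Pla2g15*, a lysosomal phospholipase, fell between the doses, from 78.2 ± 7.95 to 62.1 ± 5.94 CPM (SD, n = 4 each, log2 fold change -0.33, SE 0.09, edgeR adjusted p = 0.0164), a call lost without 10 µM replicate 2 (adjusted p = 0.0526) or 50 µM replicate 2 (0.0583). *Hexa*, *Gla*, *Arsa*, *Asah1*, *Smpd1*, *Lipa*, *Gm2a* and *Npc2* passed in no comparison. Of these, *Gla*, the alpha-galactosidase, and *Arsa*, the sulfatase of sulfatides, had log2 fold changes of 0.29 (SE 0.10, edgeR adjusted p = 0.350) and 0.27 (SE 0.09, edgeR adjusted p = 0.294) at 10 µM against vehicle.

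Among the 4 other hydrolases, *Lgmn* rose and *Ppt1* fell. *Lgmn* encodes legumain, the asparaginyl endopeptidase that trims antigens and other proteases. *Lgmn* (chr12:102394084-102439813, minus strand) stood at 96.3, 75.1, 109.5 and 112 CPM with vehicle, at 164, 161, 136 and 137 CPM at 10 µM and at 169, 155, 178 and 159.8 CPM at 50 µM. Every IPA library lay above every vehicle library, and the IPA groups overlapped. At 50 µM the log2 fold change against vehicle was 0.76 (SE 0.11, edgeR adjusted p = 0.000755), the largest rise among the members, and the call held when any library was left out. At 10 µM it was 0.61 (SE 0.12, edgeR adjusted p = 0.0645), and between the doses 0.15 (SE 0.08, edgeR adjusted p = 0.206), with a 95% interval from -0.01 to 0.31.

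*Ppt1*, the thioesterase that removes fatty acids from proteins, fell at 50 µM. *Ppt1* stood at 101, 108, 117 and 129 CPM with vehicle, at 114, 102, 109 and 104 CPM at 10 µM and at 95.4, 86.8, 93.6 and 90.5 CPM at 50 µM. The 50 µM libraries were the 4 lowest. In log2 fold change this was -0.31 against vehicle (SE 0.08, edgeR adjusted p = 0.0278) and -0.22 against 10 µM (SE 0.06, edgeR adjusted p = 0.0270). Against vehicle the call was lost without vehicle replicate 3 (adjusted p = 0.0880) or 50 µM replicate 2 (0.0800) or 4 (0.0741), and against 10 µM without 10 µM replicate 1 (0.0738) or 3 (0.0724) or 50 µM replicate 2 (0.0959) or 4 (0.0689). *Ppt1* shares 129 bases of exon with *Cap1* on the opposite strand. *Tpp1*, tripeptidyl peptidase 1, had a log2 fold change of 0.21 at 50 µM against vehicle (SE 0.07, edgeR adjusted p = 0.0588), and *Dnase2a*, the lysosomal DNase, had log2 fold changes of at most 0.09.

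Of the MiT/TFE factors themselves, *Tfec* fell at 50 µM and the other 3 passed in no comparison. *Tfec*, the member of the family expressed mainly in macrophages, stood at 111, 97.7, 106 and 125 CPM with vehicle, at 136, 118, 103 and 118 CPM at 10 µM and at 91.3, 78.7, 76.5 and 86.8 CPM at 50 µM. All 50 µM libraries lay below the other 8. *Tfec* (chr6:16833373-16898441, minus strand) had log2 fold changes of -0.39 against vehicle (SE 0.09, edgeR adjusted p = 0.0118) and -0.51 against 10 µM (SE 0.08, edgeR adjusted p = 0.000775), and both calls held when any library was left out.

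*Tfeb*, the factor best known for driving lysosome formation, stood at 44.1, 39.1, 38.4 and 45.3 CPM with vehicle, at 40.9, 41.9, 37.9 and 39.6 CPM at 10 µM and at 43.3, 46.3, 44.6 and 41.7 CPM at 50 µM. Its groups overlapped in all comparisons. The 95% interval of the log2 fold change of *Tfeb* against vehicle was -0.23 to 0.11 at 10 µM (edgeR adjusted p = 0.912) and -0.09 to 0.26 at 50 µM (edgeR adjusted p = 0.555). *Tfe3*, which binds the same elements, stood at 114, 104, 105 and 104 CPM with vehicle, at 115, 113, 107 and 111 CPM at 10 µM and at 108, 99.6, 102 and 102 CPM at 50 µM. These ranges overlapped as well, and the interval was -0.07 to 0.19 at 10 µM (edgeR adjusted p = 0.867) and -0.19 to 0.10 at 50 µM (edgeR adjusted p = 0.712). *Mitf*, the factor of melanocytes, mast cells and osteoclasts, stood at 48.6, 43.0, 48.7 and 41.4 CPM with vehicle, at 51.7, 56.0, 55.3 and 50.7 CPM at 10 µM and at 47.8, 50.2, 44.9 and 52.2 CPM at 50 µM. The 10 µM libraries of *Mitf* lay above the vehicle libraries, with a log2 fold change of 0.23 (SE 0.08, edgeR adjusted p = 0.319), and at 50 µM it was 0.11 (SE 0.08, edgeR adjusted p = 0.430). Transcript levels do not show where the proteins are in the cell, which is how the activity of *Tfeb* and *Tfe3* is mainly set.

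**Figure D5:**
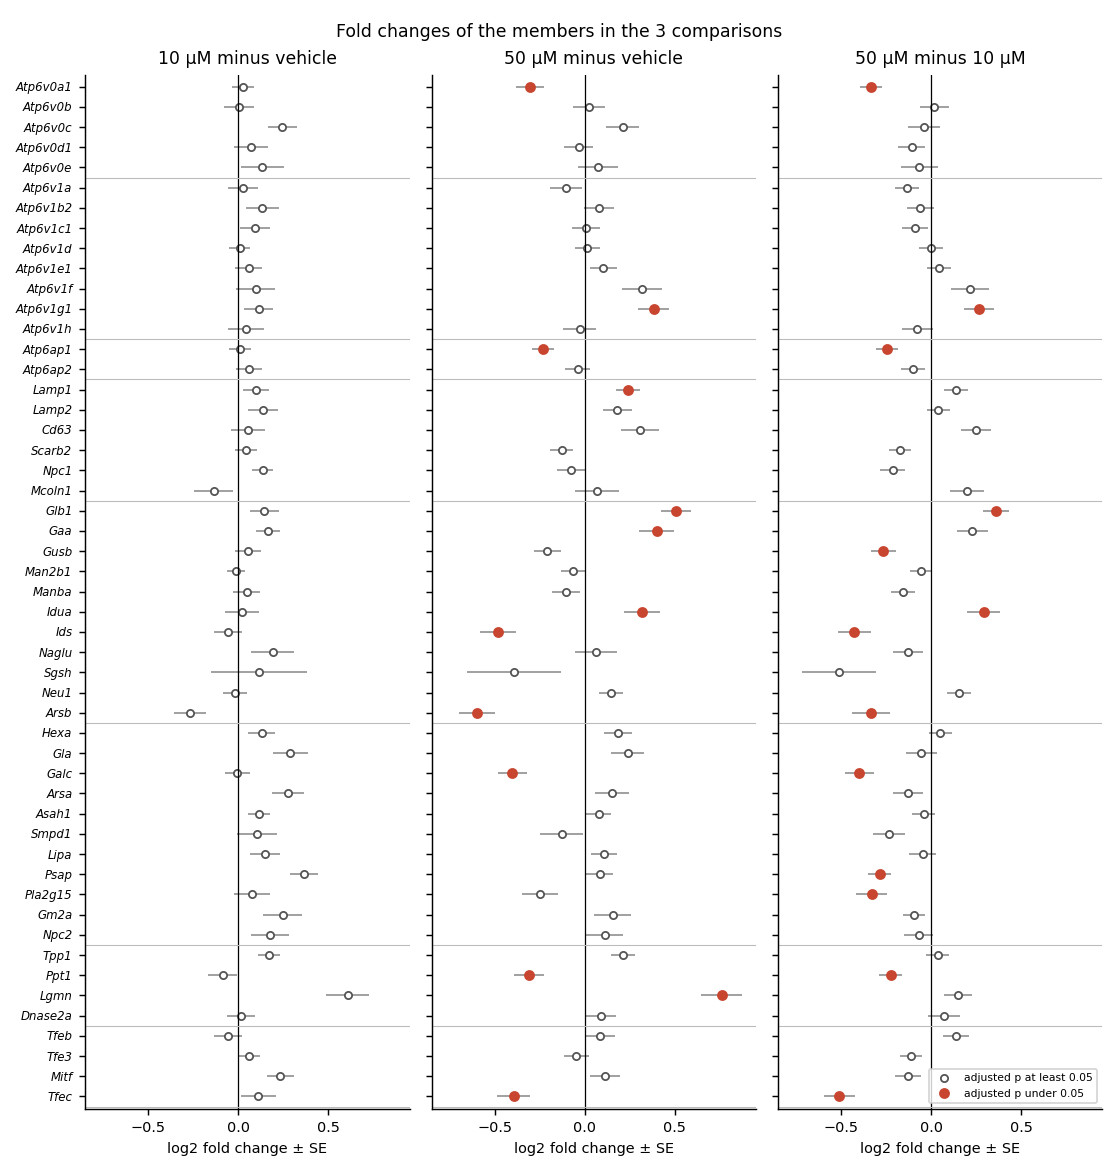
Log2 fold change with its standard error (x axis) of the 51 genes, in rows by role, for 10 µM minus vehicle, 50 µM minus vehicle and 50 µM minus 10 µM IPA; filled red points have an adjusted p under 0.05. No point is filled at 10 µM, 13 are filled at 50 µM against vehicle and 13 between the doses, 10 of them below 0.

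Set against dose, the mean level was highest at 10 µM for 29 of the 51 genes, at 50 µM for 17 and with vehicle for 5. The lowest mean was that of vehicle for 27 genes, of 50 µM for 21 and of 10 µM for 3. The same counts were not made over all genes, so they do not show a trait particular to the members. Among the called members, *Glb1*, *Gaa*, *Lgmn*, *Atp6v1g1*, *Lamp1* and *Idua* had their means in the order of the dose, from 66.8 through 73.7 to 94.3 CPM for *Glb1*. *Arsb*, *Ids*, *Ppt1* and *Galc* had them in the reverse order, from 54.0 through 44.9 to 35.5 CPM for *Arsb*. For *Galc* the means with vehicle and at 10 µM were nearly equal, at 28.5 and 28.4 CPM. *Psap*, *Tfec*, *Gusb*, *Pla2g15*, *Atp6v0a1* and *Atp6ap1* were highest at 10 µM, although none of them differed between 10 µM and vehicle in edgeR's test.

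The E-boxes were then counted against these calls. Of the 5 members with a window that rose at 50 µM against vehicle, 4 held an E-box, of the 7 that fell 0 did, and of the 33 that did not pass 9 did (27.3%). Over all genes tested that have a window, the share with an E-box was 10.4% for those that rose, 13.4% for those that fell and 11.5% for the rest. Between the doses, 1 of the 2 members with a window that rose held an E-box, 0 of the 10 that fell and 12 of the 33 that did not pass (36.4%). The shares over all genes were 8.97, 13.8 and 11.6% in the same order. *Idua* was the member that rose without an E-box, and *Atp6v1g1* had no window. All 5 genes with the longer palindrome, *Mcoln1*, *Atp6v0d1*, *Atp6v0e*, *Atp6v1a* and *Gla*, were among those that did not pass. None of the windows of the 4 MiT/TFE genes held an E-box. The *Lgmn* E-box lies in the window of the more downstream of its 2 RefSeq start sites. These are counts of few genes, given without a test.

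Other genes of the lysosomal and autophagy pathways, 91 listed and 82 expressed above the filter, were tested in the same fits. At 10 µM against vehicle 0 of the 82 passed edgeR's test (0.41% of all genes did) and 7 had an unadjusted p under 0.05 (8.78% of all genes). At 50 µM against vehicle 2 rose (7% of all genes) and 4 fell (6.5%), and between the doses 2 rose (7.52%) and 9 fell (7.85%). Among 18 further lysosomal enzymes, *Naaa*, an amidase of N-acylethanolamines, fell at 50 µM against vehicle from 269 to 164 CPM (log2 fold change -0.71, SE 0.08, edgeR adjusted p = 0.000103). *Scpep1*, a serine carboxypeptidase, rose from 57.6 to 89.6 CPM (log2 fold change 0.64, SE 0.08, edgeR adjusted p = 0.000257). Between the doses, *Acp2* and *Prcp* fell along with *Naaa*, and *Scpep1* rose. The 17 further membrane proteins tested included *Slc29a3*, a nucleoside transporter, which fell against vehicle (log2 fold change -0.56, SE 0.09, edgeR adjusted p = 0.00118) and against 10 µM (-0.65, SE 0.08, edgeR adjusted p = 6.98e-05), and *Laptm5*, which fell against 10 µM (-0.24, SE 0.06, edgeR adjusted p = 0.0157).

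Of 3 further V-ATPase subunits tested, *Tcirg1*, the a3 subunit of macrophages and osteoclasts, rose between the doses (log2 fold change 0.31, SE 0.06, edgeR adjusted p = 0.00161) and *Atp6v0a2* fell (-0.27, SE 0.07, edgeR adjusted p = 0.0158). With *Atp6v0a1*, 2 genes for the a subunit thus fell between the doses and 1 rose. Among 9 genes of mannose 6-phosphate sorting, *Sort1*, sortilin, fell against vehicle (log2 fold change -0.33, SE 0.08, edgeR adjusted p = 0.0167), and *Igf2r*, the receptor that carries hydrolases to lysosomes, fell against 10 µM (-0.47, SE 0.10, edgeR adjusted p = 0.00498). Of 19 genes of the mTORC1, Rag and folliculin machinery that holds MiT/TFE factors in the cytoplasm, *Rragb* alone passed, at low levels (1.16 CPM with vehicle and 0.284 CPM at 50 µM, log2 fold change -1.95, SE 0.48, edgeR adjusted p = 0.0172). Of 16 autophagy genes, *Gabarapl1* rose against vehicle (log2 fold change 0.32, SE 0.09, edgeR adjusted p = 0.0258). The number that passed at 50 µM against vehicle was 13 without vehicle replicate 4 (18.1% of all genes), and between the doses it was 7 without 10 µM replicate 2 (10.8%).

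Markers of the cell types in such cultures differed between the groups as well. In bulk samples, fewer cells of a type and less RNA per cell cannot be told apart. All 10 macrophage markers, 12 neutrophil markers and 6 markers of Ly6C-high monocytes were detected and tested. The macrophage markers summed to 1785 to 1984, 2135 to 2358 and 1814 to 1939 CPM in vehicle, 10 µM and 50 µM. The 10 µM libraries lay above all others, as they did for the monocyte markers. At 10 µM *C1qb* and *Mrc1* were higher than with vehicle, and between the doses 6 of the 10 were lower at 50 µM, *Csf1r*, *Mertk*, *C1qa*, *C1qb*, *C1qc* and *Mrc1*, while *Adgre1* was higher. At 50 µM against vehicle *Csf1r* and *Mrc1* were lower and *Adgre1* was higher. The monocyte markers summed to 2688 to 3426, 3839 to 4927 and 2419 to 3122 CPM in vehicle, 10 µM and 50 µM, and 5 of the 6 were lower at 50 µM than at 10 µM. Against vehicle *Ccr2*, *F13a1* and *Vcan* were lower at 50 µM, and *Fn1* was higher at 10 µM. The neutrophil markers summed to 20640 to 29080, 19110 to 22130 and 14440 to 20060 CPM, and 8 of the 12 were lower at 50 µM than with vehicle. The 8 dendritic cell markers summed to 620 to 684, 668 to 804 and 630 to 796.5 CPM, and *Zbtb46*, *Batf3* and *Clec9a* were higher at 50 µM than with vehicle (log2 fold changes 0.38, 1.2 and 1.34), *Batf3* also than at 10 µM. Of 8 osteoclast markers 6 were tested, with sums of 307 to 346.5, 326 to 367 and 288 to 351 CPM. Against vehicle *Acp5* was higher at both doses (log2 fold change 0.71 at each), and at 50 µM *Ocstamp* was higher (0.84) and *Dcstamp* lower (-0.39), while between the doses *Ctsk* and *Dcstamp* were lower. The 5 mast cell and basophil markers summed to 195 to 236, 160 to 224 and 224 to 263 CPM, and *Gata2* was higher at 50 µM than with vehicle (log2 fold change 1.15) and than at 10 µM (1.18). Of 4 T cell and 4 erythroid markers 2 and 1 were tested, summed to at most 2.35 and 0.879 CPM in any library and passed in no comparison. B cell markers were scarce, at 19.1 to 27.2, 24.2 to 34.1 and 37.9 to 60.9 CPM in sum, with 5 of 6 higher at 50 µM than with vehicle. Their part in the changes of the lysosomal genes was not tested.

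Exon length was compared as well. At 50 µM against vehicle, the median log2 fold change of all genes was 0.06 for genes with up to 2726 bases of exon, 0.01 for those with up to 5329 and -0.02 for longer ones, classes of nearly equal size. The share of all genes called higher was 6.38, 8.1 and 6.51% in the short, middle and long class, and the share called lower 4.11, 6.89 and 8.5%. Of 9 short members 3 rose and 0 fell, of 23 in the middle 3 rose and 3 fell, and of 19 long ones 0 rose and 4 fell. When each library's dependence on exon length was removed by an offset, 8 members rose and 7 fell at 50 µM against vehicle (16.1% of all genes passed), 4 rose and 11 fell between the doses (19% of all genes), and at 10 µM *Lgmn* and *Psap* passed (log2 fold changes 0.59 and 0.35, with 0.678% of all genes called).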

How the data were processed

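The 12 libraries came from a stranded mRNA protocol and were read on AVITI. Reads were trimmed (Atropos) and aligned to mm10 (HISAT2 2.2.1) by the authors, who deposited raw counts per Ensembl gene from featureCounts 2.0.1. The strand setting is not given in the sources used here, and the medium was changed on day 3 per the labels and every other day per the methods. The title of 10 µM replicate 3 repeats that of replicate 2, and the library name was used. Counts were normalized by TMM, and groups were compared pairwise on their 8 libraries by edgeR 4.0.16 under R 4.3.3 (glmQLFit, glmQLFTest). Genes were kept above 0.5 CPM in at least 2 libraries (14894), p-values were adjusted over all of them by the Benjamini-Hochberg method, and the threshold was 0.05. Totals were 20451312 to 28038612 reads, and libraries of a group differed by more than counting error (chi-square per degree of freedom 5.01 to 60.2). Within groups no library was a copy of another.

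The members and lists were chosen with earlier results of these data known. Full statistics were given for the MiT/TFE factors, for members with an adjusted p under 0.05 and for the most abundant member of each role, and other members named with values were chosen after these were seen. Exon lengths and positions are those of GENCODE M21 (GRCm38), and promoter windows those of RefSeq. Alternatives were DESeq2 1.42.0, limma-voom (limma 3.58.1), other size factors, other filters, all 12 libraries, a replicate block, a minimum log2 fold change of 0.2, leaving out each library and, added after the data were seen, an exon length offset (lowess, span 0.3). The fits were tested on simulated data. Values of some single genes outside the members are not reported here.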

Additional observations from a re-analysis of the deposited data

Results flagged for a closer look

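In each group of 4 libraries, the most extreme library was compared with the others for 63 group levels of the named members and summed levels, and 3 stood apart by Dixon's criterion, which flags about 1 in 20 groups by chance. *Atp6v1g1* stood at 184.7 CPM in 50 µM replicate 3, against 150.7 to 155.5 CPM in the other 50 µM libraries. Without this library its log2 fold change against vehicle still passed. *Gaa* stood at 60.47 CPM in 10 µM replicate 2, against 55.99 to 56.56 CPM in the other 10 µM libraries. *Tfe3* stood at 114.1 CPM in vehicle replicate 1, against 104.0 to 105.4 CPM in the other vehicle libraries.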

How the results depend on the processing

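At 10 µM against vehicle, the number of members that passed was 2 (*Lgmn* and *Psap*) with DESeq2, with no filter, with all 12 libraries in the fit and with the exon length offset, and it was 0 in the other fits except without vehicle replicate 4, so that leaving out single libraries gave 0 to 2. Of all genes, 250 (1.86%), 150 (0.6%), 118 (0.792%) and 101 (0.678%) passed with these settings, in the same order, against 61 (0.41%) in the main fit. With single libraries left out, 4 to 122 of all genes passed. At 50 µM against vehicle 4 members passed against a minimum absolute log2 fold change of 0.2 (864 of all 14894 genes did), and 7 to 18 with single libraries left out (1248 to 2689 of all genes). Between the doses the numbers were 3 (940 of all genes) and 9 to 14 (1604 to 2269). Other genes of the pathway that passed at 50 µM against vehicle numbered 10 with all 12 libraries (2450 of all genes) and 10 with the exon length offset (2393), against 6 in the main fit (2010). With single libraries left out they numbered 4 to 13 (1248 to 2689 of all genes). Between the doses 3 passed against the minimum fold change (940 of all genes), against 11 in the main fit (2289). With single libraries left out 7 to 12 did (1604 to 2269 of all genes). The medians of the members lay between 0.04 and 0.14, 0.02 and 0.09, and -0.11 and -0.03 in the 3 comparisons with single libraries left out. The log2 fold change of *Atp6ap1* at 10 µM, 0.01, was -0.000502 with the exon length offset and lay between -0.0314 and 0.0394 with single libraries left out, and that of *Atp6v0d1* at 50 µM against vehicle lay between -0.0966 and 0.0378. Calls near the threshold changed too: *Idua* against vehicle was lost with limma-voom (adjusted p = 0.0531), DESeq2's size factors (0.0534) and no filter (0.0644), *Lamp1* with no filter (0.0510), and between the doses *Idua* (0.0581), *Atp6v1g1* (0.0519) and *Ppt1* (0.0576) with all 12 libraries, while others were gained. Against vehicle *Gusb* passed with DESeq2 (0.0415), *Cd63* with DESeq2, no filter, all 12 libraries and the offset, *Tpp1* with DESeq2, at least 10 counts in every library, all 12 libraries and the offset, and *Atp6v1f* with no filter. Between the doses *Npc1* passed with DESeq2, limma-voom, no filter, at least 10 counts, all 12 libraries and the offset, *Cd63* with DESeq2, no filter, at least 10 counts and the offset, and *Scarb2* with DESeq2. The causes were not tested.

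The replicate numbers are shared between groups, but correlations of same-numbered libraries lay between -0.242 and 0.142, so they do not pair the libraries. With the replicate block 0, 11 and 12 members passed in the 3 comparisons, against 0, 13 and 13, and 3, 1830 and 2200 of all genes, against 61, 2010 and 2289. *Idua*, *Lamp1* and *Atp6ap1* against vehicle and *Atp6v1g1* between the doses did not pass with the block, and *Cd63* passed against vehicle with it as well (adjusted p = 0.0385).

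Reads shared with overlapping genes or pseudogenes and cell makeup were not separated from the treatment.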
